A study of Mus musculus with 27 samples.

Results

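The platelet-derived growth factor (PDGF) family was described here as 6 genes, the ligands Pdgfa, Pdgfb, Pdgfc and Pdgfd and the receptors Pdgfra and Pdgfrb. They were taken by symbol from a table of 30153 genes, each symbol matched 1 entry, and all 6 passed the filter on low values. PDGF ligands are secreted dimers that bind and pair receptor tyrosine kinases on mesenchymal cells and drive their migration, proliferation and survival. Pdgfra is widely used as a marker of fibro-adipogenic and skeletal progenitors. Pdgfrb is the receptor through which endothelial PDGF-BB recruits pericytes and smooth muscle cells to vessels. PDGF-AA and PDGF-BB are active as secreted, whereas PDGF-CC and PDGF-DD carry a CUB domain that proteases must remove.

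The libraries were bulk RNA-seq of tdTomato-positive, CD45- cells sorted from the hindlimbs of mice. The mice carried Prx1-CreER, the Ai14 tdTomato reporter and a Rag1 mutation, so CreER was driven by the Prx1 promoter and every group shared these 3 alleles and the tamoxifen that switched the reporter on. Males and females aged 8 to 12 weeks were used, and cells were sorted 3 days after the last tamoxifen dose. From muscle, periosteum and bone marrow, P1 was sorted as CD105- CD200+, P2 as CD105- CD200- and P3 as CD105+ with variable CD200. Each of the 9 groups held 3 libraries, 27 in all. The design text places the tissues within the same animals but does not tie a library to an animal, so libraries were taken as independent and p-values measure the spread between them.

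Values are normalized counts as deposited, with totals from 8631881 to 26230908 per library, and a commonest low value of 0.46 to 3.25 that marks the grain of the scale. The original read depth per library was not given in the sources used here. Eng, which encodes CD105, averaged 5404 ± 795 in muscle P3, 5765 ± 1823 in periosteum P3 and 1195 ± 494 in bone marrow P3 (SD, n = 3) against at most 359.7 ± 212 in P1 and P2. Cd200 averaged 23.1 to 396 in the 3 P2 groups and 2287 to 6725 in the 3 P1 groups. Globin transcripts took 44.2 to 47.3% of the total in the marrow P2 libraries, 24.1 to 38.6% in those of periosteum P2, and at most 4.28% elsewhere. The reporter transgene entry was 1181 to 1296 in bone marrow P2 and 24200.2 to 47049.8 in bone marrow P1. Replicates correlated least in periosteum P2, with r of 0.631 to 0.672 across genes, and muscle fibre markers (Ckm, Acta1, Mb, Myh4, Tnnt3) summed to 1650133 to 1777125 in muscle P2 and at most 37104 elsewhere. In such bulk samples, fewer cells of a type and less RNA per cell cannot be told apart.

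Results showed 28 calls of the members in 108 tests over 18 pairwise comparisons, 17 between subpopulations and 11 between tissues. Of all genes tested, 0.466 to 40.1% were called, depending on the comparison. In bone marrow, 5 of 6 members (all but Pdgfb) were higher in P1 than in P2, beside 10.4% of the 18442 genes tested that were called higher and 34% called in either direction. A gene was called where limma gave an adjusted p under 0.05 with a log2 difference over 1.5 in either direction, fitted on log2(normalized count + 1), a scale that understates the change of low genes. All 5 calls held under each of the 10 processing alternatives and without any single library, although the size of the Pdgfc and Pdgfd differences moved with single marrow P2 libraries, as given below. Among the alternatives, dropping the fold threshold could not lose a call, and most left-out libraries lay outside the comparison. Marrow P1 was also where Pdgfc was highest, and marrow P2 was where both receptors were lowest.

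The members lie apart in the genome. By GENCODE M21 on GRCm38, Pdgfa (ENSMUSG00000025856) is at chr5:138976014-138997370 on the minus strand and Pdgfra (ENSMUSG00000029231) at chr5:75152292-75198215 on the plus strand. Pdgfb (ENSMUSG00000000489) is at chr15:79995874-80014977 on the minus strand, Pdgfc (ENSMUSG00000028019) at chr3:81036416-81214040 and Pdgfd (ENSMUSG00000032006) at chr9:6168584-6378850, both on the plus strand. Pdgfrb was identified by ENSMUSG00000024620. The library kit does not mark strand, and 813 of the 3119 exon bases of Pdgfa lie opposite the antisense gene 6330403L08Rik, 147 of 5089 of Pdgfc opposite Gm16000, and 456 and 166 of 10024 of Pdgfra opposite Gm42802 and Gm42803. Reads from these stretches cannot be assigned to a strand.

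Because Pdgfa, Pdgfc, Pdgfd and Pdgfra rose together in marrow P1 against P2, the 250 bases upstream of their RefSeq starts (GRCm38.p6) are shown. RefSeq windows were matched for 4 of 6 members; Pdgfb and Pdgfrb had no entry. Pdgfa had 2 windows; the printed one, chr5:138994282-138994531 (minus strand), lies inside the annotated gene, downstream of its first coding exon. The other Pdgfa window, chr5:138994945-138995194, also lies inside the annotated gene, so neither window is upstream of it. That window holds 93 annotated UTR bases and is described by its composition. Pdgfc is shown at chr3:81036166-81036415, Pdgfd at chr9:6168236-6168485 and Pdgfra at chr5:75152001-75152250, all plus strand. Sequences read 5′ to 3′ on the strand of the gene, and capitals mark a match to 1 of 4 motifs searched on both strands. GGGCGG is the core of a GC box. TATAAA is the core of a TATA box. The CCAAT box was searched by its own letters, and the RUNX core as TGTGGT.
Pdgfa: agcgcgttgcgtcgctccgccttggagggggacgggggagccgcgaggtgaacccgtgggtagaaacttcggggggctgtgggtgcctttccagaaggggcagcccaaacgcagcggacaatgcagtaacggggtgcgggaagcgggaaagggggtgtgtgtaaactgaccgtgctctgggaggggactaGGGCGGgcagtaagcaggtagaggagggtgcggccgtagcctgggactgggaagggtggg
Pdgfc: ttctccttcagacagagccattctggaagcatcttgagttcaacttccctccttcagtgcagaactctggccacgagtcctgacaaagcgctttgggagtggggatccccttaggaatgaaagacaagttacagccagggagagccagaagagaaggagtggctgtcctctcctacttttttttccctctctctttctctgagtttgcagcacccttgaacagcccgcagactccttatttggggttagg
Pdgfd: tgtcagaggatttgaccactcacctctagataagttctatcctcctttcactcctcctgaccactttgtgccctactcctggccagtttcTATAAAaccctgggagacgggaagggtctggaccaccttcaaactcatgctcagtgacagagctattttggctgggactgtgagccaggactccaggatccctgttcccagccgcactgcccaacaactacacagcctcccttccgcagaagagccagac
Pdgfra: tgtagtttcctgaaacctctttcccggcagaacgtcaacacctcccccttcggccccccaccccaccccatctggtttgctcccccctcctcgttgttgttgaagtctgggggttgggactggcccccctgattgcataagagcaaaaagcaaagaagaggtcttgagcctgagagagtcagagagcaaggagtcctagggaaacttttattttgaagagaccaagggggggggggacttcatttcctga
The printed Pdgfa window held 1 GC box, 60 bases before the start, and the Pdgfd window held 1 TATAAA, 160 bases before the start. The other Pdgfa window held 2 GC boxes on the opposite strand, and the Pdgfc and Pdgfra windows held none of the 4 motifs. Among all 32851 windows of this length, 32.7% held the GC box core, 12.4% the TATA box core, 33.8% the CCAAT box and 14.0% the RUNX core, counting both strands. Both Pdgfa windows were rich in G and C, at 66.4 and 72.4%, against a median of 52.4% over all windows, 50.8% for Pdgfc, 53.6% for Pdgfd and 54.4% for Pdgfra. No motif was common to the 4 genes.

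Pdgfa, which encodes the A chain that signals through the alpha receptor, was the most evenly detected ligand, above 0 in all 27 libraries. In bone marrow, its normalized counts were 1404, 1370.4 and 1129 in P1, 103, 96.2 and 60.3 in P2, and 77.7, 39.1 and 61 in P3. Periosteum gave 1878, 1513 and 1322 in P1, 311, 218 and 1466 in P2, and 311, 268 and 304 in P3. Muscle gave 479, 644 and 759 in P1, 417, 566 and 273 in P2, and 265, 267 and 462 in P3. P1 of marrow and of periosteum thus lay above P3 of the same tissue with no overlap, muscle subpopulations overlapped or nearly touched, and periosteum P2 replicate 3 sat at the level of P1. Pdgfa was higher in marrow P1 than in P2 by 3.93 on the log2 scale (SE 0.58, adjusted p = 1.85e-05) and than in P3 by 4.48 (SE 0.58, adjusted p = 1.72e-05). In periosteum, it was higher in P1 than in P3 by 2.40 (adjusted p = 0.0164), a call lost without periosteum P1 replicate 1 (2.26, adjusted p = 0.0535). The excess of periosteum P1 over P2 was 1.74 (adjusted p = 0.0369), and leaving out any 1 of the 3 P1 libraries or P2 replicate 1 or 2 ended that call, with adjusted p from 0.0581 to 0.160. Without P2 replicate 3, the high library, it was 2.57 (adjusted p = 0.00126). Fitted on the compared groups alone, both periosteum calls were lost (adjusted p = 0.392 for P1 against P2 and 0.0679 for P1 against P3), and the first was also lost with quantile normalization (adjusted p = 0.0787). None of the muscle comparisons passed, with P1 against P3 at 0.94 (95% interval -0.26 to 2.15).

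Across tissues, Pdgfa fell to its lowest levels in the marrow fractions other than P1. In P2, muscle exceeded marrow by 2.24 (adjusted p = 0.004) and periosteum exceeded marrow by 2.44 (adjusted p = 0.00378). In P3, muscle exceeded marrow by 2.47 (adjusted p = 0.0058) and periosteum by 2.34 (adjusted p = 0.0139), the latter lost without bone marrow P3 replicate 2 (2.08, adjusted p = 0.0879). On the compared groups alone, the calls of periosteum over marrow were lost in P2 (adjusted p = 0.170) and in P3 (adjusted p = 0.0657), and without periosteum P2 replicate 3 the first was 1.61 (adjusted p = 0.0302). In P1, the muscle libraries lay below those of periosteum and marrow with no overlap, but neither difference passed, at -1.33 (95% interval -2.54 to -0.13, adjusted p = 0.223) against periosteum and -1.07 (95% interval -2.28 to 0.14, adjusted p = 0.37) against marrow. Ordered by mean, the groups ran from periosteum P1, marrow P1, periosteum P2, muscle P1, P2 and P3 to periosteum P3, marrow P2 and marrow P3. Neighbours in that order overlapped in range at every step except between periosteum P3 and marrow P2.

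Pdgfb, which encodes the B chain that binds both receptors and is classically made by endothelial cells and platelets, was detected least often of the 6 members. Muscle gave 33.2, 48.3 and 36.8 in P1, 87.2 to 142 in P2, and 284, 271 and 379 in P3. Periosteum gave 0, 0 and 41.4 in P1, 0 in all 3 P2 libraries, and 603, 0 and 25.8 in P3. Marrow gave 0, 0 and 17.1 in P1, 66.1, 2.80 and 32.1 in P2, and 85.7, 15.3 and 12.2 in P3. In muscle, the 3 subpopulations did not overlap and rose from P1 to P2 to P3, whereas in periosteum P3 a single library carried most of the signal. Pdgfb was listed at 0 in 8 of 27 libraries, and the spread pooled over all 9 groups gave each pairwise difference an SE of 1.72. Muscle P1 against P3 was -2.95 (95% interval -6.51 to 0.61, adjusted p = 1); fitted on those 2 groups alone, the same difference had an adjusted p of 0.00906. The one call was muscle P2 against periosteum P2 (adjusted p = 0.00442), for which no fold is given because periosteum P2 is listed at 0. Periosteum P2 against P3, again with one side listed at 0, had an adjusted p of 0.0622. It passed with the replicate block (adjusted p = 0.0486), with libraries rescaled to the same total (adjusted p = 0.0468), and without periosteum P1 replicate 3 (adjusted p = 0.0436) or periosteum P3 replicate 2 (adjusted p = 0.00557). Muscle P3 against periosteum P3 was 3.61 (adjusted p = 0.257) and 5.90 (adjusted p = 0.0387) without periosteum P3 replicate 1, the library at 603. Periosteum P2 against marrow P2 had an adjusted p of 0.0748, and from 0.0318 to 0.0402 without periosteum P3 replicate 1 or 2 or marrow P2 replicate 2. With a pseudocount of 0.1 its adjusted p was 0.0366.

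Endothelial markers were highest in the P3 group of each tissue, as Pdgfb was in muscle, but muscle P2 held more Pdgfb than muscle P1 at a lower median marker sum. The 10 genes Pecam1, Cdh5, Kdr, Tie1, Tek, Emcn, Cldn5, Egfl7, Esam and Flt1 summed to 41802 to 69759.5 in muscle P3, 27785 to 51956 in periosteum P3 and 3530.3 to 12855 in marrow P3. The sums were 6102 to 14984 in muscle P1, 3072 to 7253 in muscle P2, 359.7 to 1878 in periosteum P1, 533 to 1725 in periosteum P2, 168 to 185 in marrow P1 and 1186 to 1953 in marrow P2. All 10 were above 0 in at least 1 library of every group, except Cldn5 at 0 in all 3 periosteum P2 libraries. Periosteum P3 replicate 2 had Pdgfb at 0 with an endothelial sum of 33891. That library also had Pdgfc at 0 and the fewest genes above 0 of the 27 libraries (12396). The part of the endothelial markers and of gene detection in the Pdgfb levels was not tested.

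Pdgfc, a ligand that needs proteolytic activation and acts mainly through the alpha receptor, was highest in marrow P1. Marrow gave 995, 2057 and 1187 in P1, 47.2, 6.42 and 88.3 in P2, and 33.3, 12.6 and 95.3 in P3. Periosteum gave 428, 536 and 147 in P1, 120.3, 3.48 and 28.8 in P2, and 219, 0 and 111 in P3. Muscle gave 259.8, 227 and 218 in P1, 20.7, 74.6 and 62.6 in P2, and 60.6, 62.2 and 54.9 in P3. P1 stood above P2 with no overlap in all 3 tissues, and marrow P1 above every other group. The marrow excess of P1 was 5.41 over P2 (SE 1.45, adjusted p = 0.00609) and 5.24 over P3 (SE 1.45, adjusted p = 0.026). Without marrow P2 replicate 2 the first was 4.36 (adjusted p = 0.0369), without marrow P2 replicate 3 it was 6.15 (adjusted p = 0.00843), and with quantile normalization it was 7.02 (adjusted p = 0.000123). The call against P3 was lost with a pseudocount of 0.1 (adjusted p = 0.105), with libraries rescaled to the same total (4.29, adjusted p = 0.0754), and without any of the 3 marrow P1 libraries or marrow P3 replicate 1 or 2 (adjusted p from 0.0583 to 0.150), while without marrow P3 replicate 3 the difference was 5.96 (adjusted p = 0.0369). In muscle, P1 exceeded P2 by 2.32 (95% interval -0.68 to 5.33, adjusted p = 0.424) and P3 by 1.97 (95% interval -1.04 to 4.97, adjusted p = 1), the latter with an adjusted p of 0.0124 when those groups were fitted alone. In periosteum, P1 against P2 was 3.68 (adjusted p = 0.0762), and passed without periosteum P2 replicate 1 (adjusted p = 0.0291) or periosteum P3 replicate 2 (adjusted p = 0.0139). It also passed with a pseudocount of 5 (3.32, adjusted p = 0.0382). No tissue comparison passed, and the groups below marrow P1 each overlapped their neighbour in the order of means.

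Pdgfd, the other ligand activated by proteolysis and a ligand of the beta receptor, was nearly absent from periosteum P2. Periosteum gave 1122, 506 and 655 in P1, 0, 5.13 and 1.09 in P2, and 449, 212 and 356 in P3. Marrow gave 987, 1811 and 1063 in P1, 66.4, 75.7 and 0 in P2, and 175, 85.1 and 87.9 in P3. Muscle gave 444, 801 and 321 in P1, 308, 0 and 183 in P2, and 720.3, 522 and 887 in P3. Every periosteum P2 library lay below every P1 and P3 library of that tissue, and muscle P2 held 1 library at 0 beside values of 183 and 308. In periosteum, Pdgfd was higher in P1 than in P2 by 8.27 (SE 1.54, adjusted p = 0.00049) and lower in P2 than in P3 by -7.12 (SE 1.54, adjusted p = 0.00264). Since periosteum P2 lay at or near 0, these sizes depend on the pseudocount: with 0.1 they were 9.72 and -8.57, and with 5 they were 6.74 and -5.61. Without periosteum P2 replicate 1 they were 7.65 and -6.50, and without replicate 2 they were 8.96 and -7.81. Both calls held without any single library, and both were lost when the 2 groups were fitted alone (adjusted p = 0.0628 and 0.106). In marrow, P1 exceeded P2 by 6.16 (SE 1.54, adjusted p = 0.00356). Without marrow P2 replicate 3, the library at 0, this was 4.11 (adjusted p = 0.0436), and without replicate 1 or 2 it was 7.14 or 7.24. Marrow P1 against P3 was 3.49 (95% interval 0.31 to 6.67, adjusted p = 0.222), with no overlap of libraries. It was a call on those 2 groups alone (adjusted p = 0.00875) and with a pseudocount of 5 (3.44, adjusted p = 0.0485). In muscle, P2 against P3 was -4.17 (adjusted p = 0.0809) and became a call without muscle P2 replicate 1 (-5.68, adjusted p = 0.0269), without muscle P2 replicate 3 (-5.30, adjusted p = 0.0475) or without bone marrow P2 replicate 3 (-4.17, adjusted p = 0.0383). That difference was also a call with a pseudocount of 5 (-3.39, adjusted p = 0.0384) and with libraries rescaled to the same total (-4.80, adjusted p = 0.0275). Muscle against periosteum in P2 was 4.04 (adjusted p = 0.0508) and rose to 6.67 (adjusted p = 0.000468) without muscle P2 replicate 2, the library at 0. It also passed without periosteum P2 replicate 2, periosteum P3 replicate 2 or marrow P2 replicate 2 or 3 (adjusted p from 0.0237 to 0.0498). Other settings made it a call too: a pseudocount of 5 (3.30, adjusted p = 0.0234), a filter on a mean of at least 50 (adjusted p = 0.0434) and rescaling to the same total (4.08, adjusted p = 0.0414). Muscle against marrow in P2 was 1.15 (adjusted p = 0.573) and 3.79 (adjusted p = 0.0223) without muscle P2 replicate 2, and periosteum against marrow in P2 was -2.89 (adjusted p = 0.191) and -4.94 (adjusted p = 0.0242) without marrow P2 replicate 3. The order of means ran from marrow P1, periosteum P1 and muscle P3 to marrow P2 and periosteum P2, with overlap at every step except between marrow P3 and marrow P2.

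**Figure D1:**
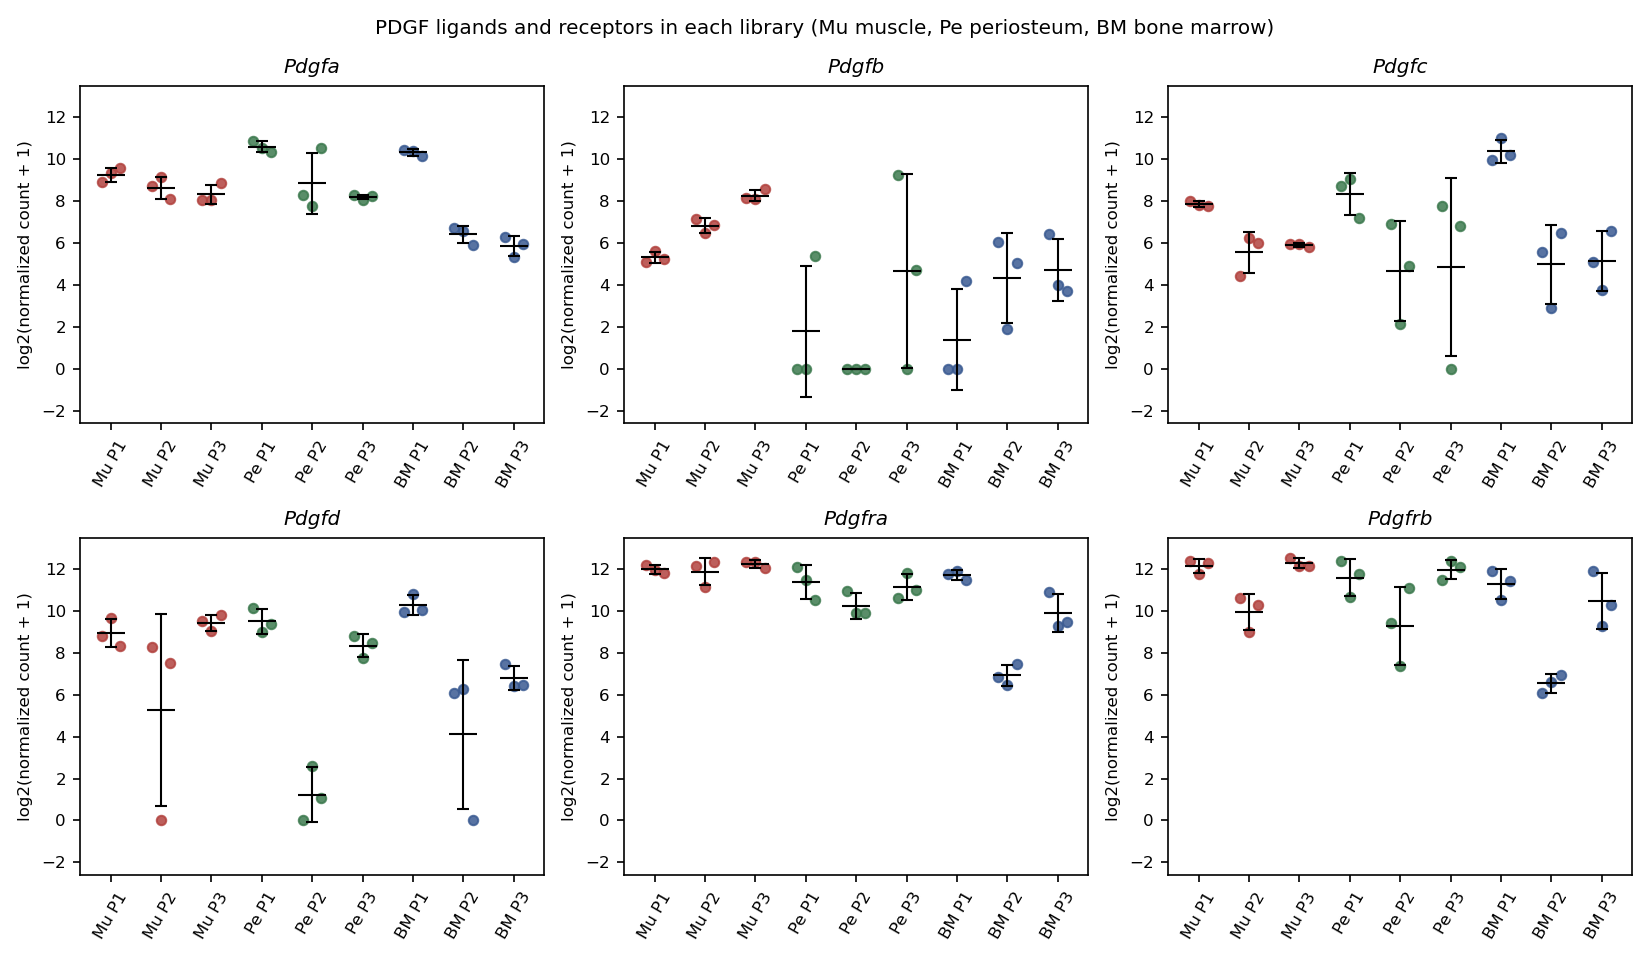
Each panel plots 1 member as log2(normalized count + 1) for the 3 libraries of each group (points; red muscle, green periosteum, blue bone marrow), with the mean and SD of the log2 values as bars. Pdgfa, Pdgfc and Pdgfd are high in marrow P1, Pdgfb is at 0 in 8 of 27 libraries, and both receptors are lowest in marrow P2.

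Pdgfra, the alpha receptor, was high in all 3 muscle subpopulations. Muscle gave 4734, 3926 and 3576 in P1, 4552, 2226 and 5160.2 in P2, and 5164, 5199 and 4213 in P3. Periosteum gave 4431, 2832 and 1460.4 in P1, 2001, 939 and 963 in P2, and 1569, 3632 and 2033 in P3. Marrow gave 3437, 3883 and 2839.7 in P1, 115, 87.5 and 173 in P2, and 1927, 626 and 719 in P3. The 3 marrow subpopulations did not overlap, while the muscle subpopulations overlapped throughout. Marrow P1 exceeded P2 by 4.79 (SE 0.47, adjusted p = 4.38e-08), and marrow P2 lay below P3 by -2.98 (SE 0.47, adjusted p = 8.95e-05), or by -4.07 with libraries rescaled to the same total. Marrow P1 exceeded P3 by 1.82 (adjusted p = 0.0152). That call was lost with libraries rescaled to the same total (0.84, adjusted p = 0.367), without a trend in the variance model (adjusted p = 0.0553), on the 2 groups alone (adjusted p = 0.0614), and without marrow P1 replicate 1 or 2 or marrow P3 replicate 2 or 3 (1.51 to 1.80, adjusted p from 0.0567 to 0.117). In periosteum, P1 against P2 was 1.11 (adjusted p = 0.0941) and 1.54 (adjusted p = 0.035) without periosteum P1 replicate 3. With libraries rescaled to the same total, it was a call (1.57, adjusted p = 0.0313). So was periosteum P2 against P3 under that scaling (-1.69, adjusted p = 0.0205), which was not a call as deposited. In muscle, P1 against P2 was 0.12 (95% interval -0.85 to 1.08) and P1 against P3 was -0.26 (95% interval -1.22 to 0.71).

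Across tissues, Pdgfra was lowest in marrow for P2 and P3. In P2, muscle exceeded marrow by 4.95 (adjusted p = 2.46e-08) and periosteum exceeded marrow by 3.33 (adjusted p = 1.26e-05). Muscle also exceeded periosteum in P2 by 1.62 (adjusted p = 0.0112), a call near the fold threshold that was lost without muscle P2 replicate 1 or 3 or periosteum P2 replicate 2 or 3 (1.38 to 1.48), with quantile normalization (1.25) and on the compared groups alone (adjusted p = 0.113). In P3, muscle exceeded marrow by 2.34 (adjusted p = 0.00131), and periosteum against marrow was 1.25 (adjusted p = 0.109), rising to 1.75 (adjusted p = 0.0274) without bone marrow P3 replicate 1. In P1, muscle against marrow was 0.27 (95% interval -0.69 to 1.23). In the order of means, from muscle P3 to marrow P2, neighbours overlapped at every step except the last, where marrow P3 lay above marrow P2.

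Pdgfrb, the beta receptor and a marker of pericytes and perivascular mesenchymal cells, was lowest in marrow P2, as the alpha receptor was. Unlike the alpha receptor, it was also lower in muscle P2 than in muscle P1 and P3. Muscle gave 5295, 3460.0 and 4934 in P1, 1572, 502 and 1232 in P2, and 5939, 4539.8 and 4582 in P3. Periosteum gave 5261, 1608 and 3452 in P1, 675, 165 and 2165 in P2, and 2816, 5305 and 4307 in P3. Marrow gave 3814, 1454 and 2774 in P1, 66.5, 95.7 and 123 in P2, and 3876, 613 and 1232 in P3. Muscle P2 lay below P1 and P3 with no overlap, marrow P2 lay below every other group, and periosteum P2 replicate 3 fell within the range of P1. Marrow P1 lay within the range of marrow P3, and their difference was not called (0.19 to 1.52 with each library left out). Pdgfrb was higher in marrow P1 than in P2 by 4.74 (SE 0.70, adjusted p = 1.81e-05) and lower in marrow P2 than in P3 by -3.94 (SE 0.70, adjusted p = 0.000384). The second was -3.22 without marrow P3 replicate 1, -4.55 without marrow P3 replicate 2 and -5.04 with libraries rescaled to the same total, and remained a call in each. In muscle, it was lower in P2 than in P3 by -2.33 (SE 0.70, adjusted p = 0.0301), and lost that call without muscle P2 replicate 2 or 3 or any of the 3 muscle P3 libraries (adjusted p from 0.0515 to 0.162), and without a trend in the variance model (adjusted p = 0.0603). Muscle P1 against P2 was 2.18 (SE 0.70, adjusted p = 0.0533), just outside the threshold. It passed on those 2 groups alone (adjusted p = 0.0359) and with the replicate block (adjusted p = 0.0236). Rescaling to the same total (2.84, adjusted p = 0.0162) and quantile normalization (2.53, adjusted p = 0.0154) made it a call. So did a pseudocount of 5 (adjusted p = 0.0449) and a filter on a mean of at least 50 (adjusted p = 0.0446). This difference also passed without periosteum P1 replicate 1 or 2, periosteum P2 replicate 2 or 3, or marrow P3 replicate 1 or 2, none of which is in that comparison (adjusted p from 0.0158 to 0.0496).

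In periosteum, Pdgfrb was higher in P1 than in P2 by 2.30 (adjusted p = 0.0235) and lower in P2 than in P3 by -2.68 (adjusted p = 0.0109). Without periosteum P2 replicate 2, the lowest library, these became 1.35 (adjusted p = 0.161) and -1.73 (adjusted p = 0.0794), and without periosteum P2 replicate 3, the highest, 3.20 (adjusted p = 0.0018) and -3.58 (adjusted p = 0.000845). On the compared groups alone, both calls were lost (adjusted p = 0.392 and 0.369). The first was also lost without periosteum P1 replicate 1 (1.92, adjusted p = 0.103) or replicate 3 (2.22, adjusted p = 0.061). In P2, muscle exceeded marrow by 3.41 (adjusted p = 0.000549) and periosteum exceeded marrow by 2.74 (adjusted p = 0.00657), the latter lost without periosteum P2 replicate 3 (1.85, adjusted p = 0.0547) and on the compared groups alone (adjusted p = 0.183), and 3.70 without periosteum P2 replicate 2. In P3, muscle against marrow was 1.80 (95% interval 0.35 to 3.25, adjusted p = 0.11) and passed without bone marrow P3 replicate 1 (2.52, adjusted p = 0.0259) or periosteum P2 replicate 2 (1.80, adjusted p = 0.0413). In P1, the tissues differed by at most 0.85, for muscle against marrow (95% interval -0.60 to 2.30). Ordered by mean, only marrow P2, in last place, stood clear of its neighbour.

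Mural markers ordered the groups differently from Pdgfrb, with muscle P1 far above all others. The 10 genes Rgs5, Cspg4, Acta2, Myh11, Notch3, Abcc9, Kcnj8, Mcam, Cnn1 and Tagln summed to 51182 to 118457 in muscle P1, 25845 to 33694 in muscle P3 and 1142 to 4531 in muscle P2. The sums were 5872 to 6909 in periosteum P1, 1869 to 5762 in periosteum P2, 7241 to 9245 in periosteum P3, 1466 to 3646 in marrow P1, 395 to 929 in marrow P2 and 544 to 3356 in marrow P3. All 10 were above 0 in every group, except Myh11 and Mcam at 0 in all 3 marrow P1 libraries. Marrow P1 thus held Pdgfrb at 1454 to 3814 with a mural sum below that of every muscle P1 and P3 library. In marrow P2, where both receptors were lowest, 7 erythroid genes summed to 7962927 to 12615844, against 118633 to 491646 in marrow P1 and 269283 to 464742 in marrow P3. The 8 osteoblast genes Col1a1, Bglap, Alpl, Sp7, Runx2, Ibsp, Dmp1 and Phex summed to 2779704 to 4853603 in marrow P1, 2485 to 7534 in marrow P2 and 38910.0 to 102154 in marrow P3, and all 8 were above 0 in each of these groups. The part of the mural, erythroid and osteoblast markers in the levels of the PDGF genes was not tested.

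**Figure D2:**
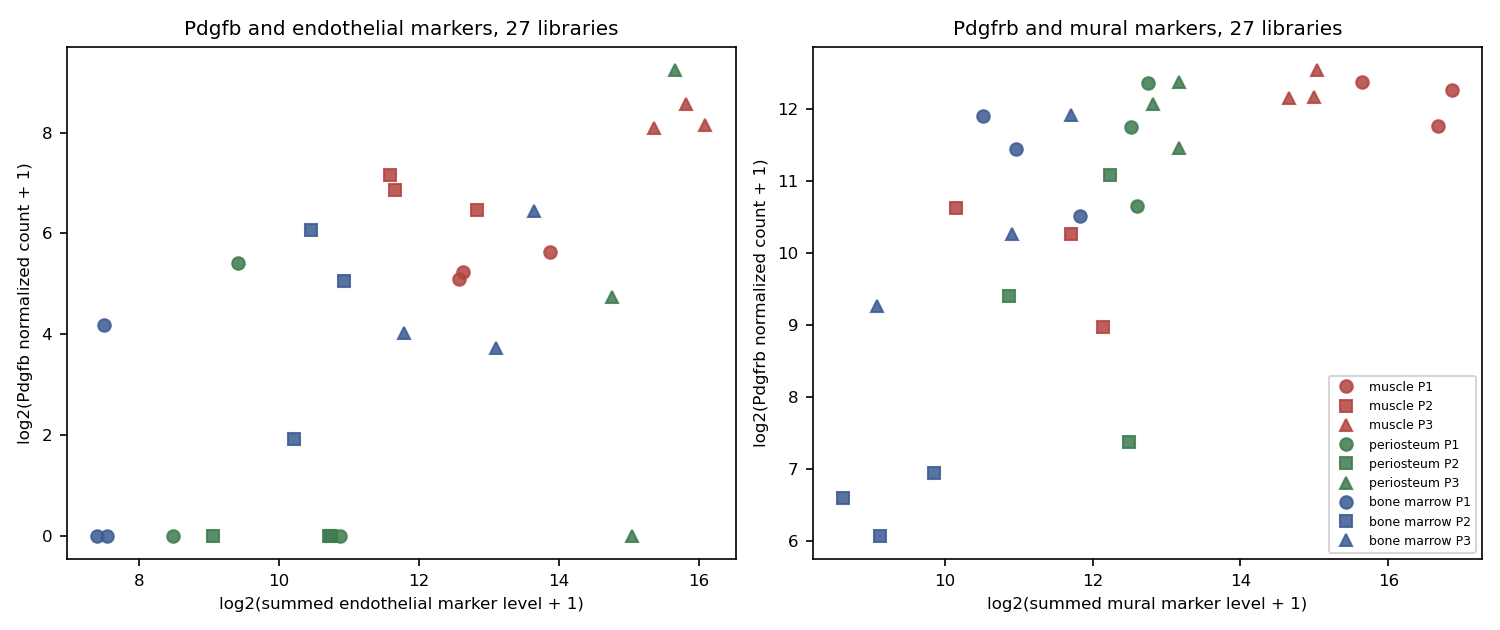
The left panel plots Pdgfb against the summed level of 10 endothelial markers and the right panel Pdgfrb against the summed level of 10 mural markers, both on log2(value + 1) axes, with 1 point per library (27 in all; colour marks tissue, shape marks subpopulation). The muscle and periosteum P3 libraries lie farthest right on the endothelial axis, and marrow P1 reaches high Pdgfrb at low mural sums. Among those P3 libraries, 1 has Pdgfb at 0, periosteum P3 replicate 2, which has the fewest genes above 0 of the 27 libraries.

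Among the subpopulation comparisons, 8 of the 17 calls lay between P1 and P2, 4 between P1 and P3 and 5 between P2 and P3. In bone marrow, P1 against P2 gave the 5 higher and 0 lower given above, with a median log2 difference over the members of 4.77 against -0.61 over all genes. Marrow P1 against P3 gave 3 higher (beside 3.46% of all genes higher and 6.6% in either direction; median 2.65 against 0 over all genes), and marrow P2 against P3 gave 2 lower (beside 5.38% lower and 20% in either direction; median -1.53 against 0.48). In periosteum, P1 against P2 gave 3 higher (beside 10.1% higher and 19.1% in either direction), P1 against P3 gave 1 higher (1.39% and 4.18%), and P2 against P3 gave 2 lower (9.33% lower and 17.1%). In muscle, P2 against P3 gave 1 lower (5.61% lower and 11.2% in either direction), and limma called 0 members in P1 against P2 (8.21% of all genes) and P1 against P3 (0.466%). No member was called lower in P1 than in P2 or P3. These comparisons share libraries, so the calls of 1 tissue are not independent of each other.

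Between tissues, all calls fell in P2 and P3, and each was higher in muscle than in periosteum or marrow, or higher in periosteum than in marrow. In P2, muscle exceeded periosteum for 2 members (beside 17.6% of all genes higher and 28% in either direction), muscle exceeded marrow for 3 (14.1% and 40.1%) and periosteum exceeded marrow for 3 (4.65% and 20%). In P3, muscle exceeded marrow for 2 members (6.14% higher and 10.4% in either direction; median 2.40 against 0.35 over all genes), periosteum exceeded marrow for 1 (2.95% and 6.94%; median 1.37 against -0.36), and muscle against periosteum gave 0 by limma (3.5%). In P1, limma called 0 of 6 members in muscle against periosteum (4.9%), muscle against marrow (8.34%) and periosteum against marrow (4.87%). On the groups alone, Pdgfc in P1 of muscle against marrow was a call (-2.52, adjusted p = 0.00546). In P3 of muscle against marrow, Pdgfb (3.54, adjusted p = 0.0173) and Pdgfd (2.65, adjusted p = 0.00471) were calls on the groups alone. Over the 18 comparisons, Pdgfa was called in 8, Pdgfra and Pdgfrb in 7 each, Pdgfd in 3, Pdgfc in 2 and Pdgfb in 1, beside 0.466 to 40.1% of all genes called per comparison.

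**Figure D3:**
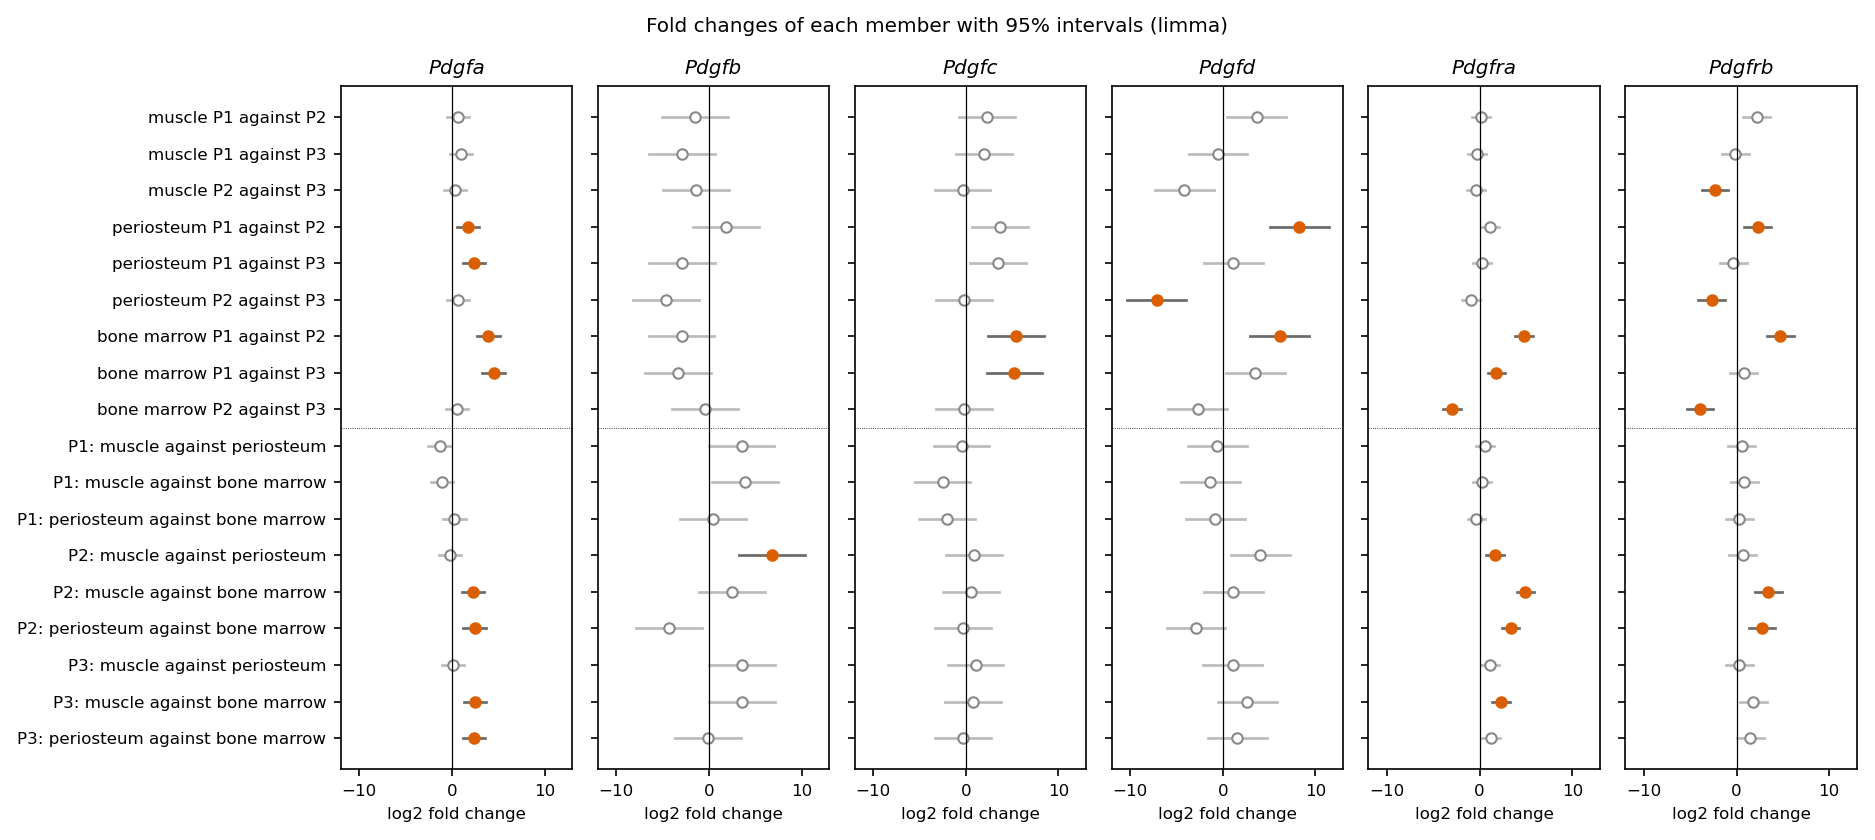
Each panel gives 1 member's log2 fold change in the 9 subpopulation comparisons (above the dotted line) and the 9 tissue comparisons, first group minus second, with 95% intervals from limma; orange filled points are calls and grey open points are not. Pdgfb has the widest intervals, and its values against periosteum P2 depend on the pseudocount, since that group is listed at 0; the 5 calls of marrow P1 against P2 are all to the right of 0.

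Whether a subpopulation difference itself changed between tissues was tested with interaction terms, and 5 of 54 were called. The P1 over P2 difference of Pdgfa was smaller in muscle (0.62) than in marrow (3.93), by -3.31 (SE 0.83, adjusted p = 0.00618), and that of Pdgfra was smaller in muscle (0.12) than in marrow (4.79), by -4.68 (SE 0.66, adjusted p = 2.82e-05). These were 2 of 6 members in a test that called 7.48% of all genes in that direction and 22.2% in either. The P1 over P2 difference of Pdgfra was also smaller in periosteum (1.11) than in marrow, by -3.68 (SE 0.66, adjusted p = 0.000842), 1 of 6 members beside 2.66% of all genes in that direction and 7.24% in either. The P2 against P3 difference of Pdgfra was -0.37 in muscle and -2.98 in marrow, a gap of 2.61 (SE 0.66, adjusted p = 0.00779), 1 of 6 beside 6.43% in that direction and 19.2% in either. The P1 over P3 difference of Pdgfa was smaller in muscle than in marrow by -3.54 (SE 0.83, adjusted p = 0.0223), 1 of 6 beside 1.04% in that direction and 1.99% in either, and that call was lost with libraries rescaled to the same total (-2.65, adjusted p = 0.0848) and without muscle P1 replicate 1 or 2, muscle P3 replicate 3, marrow P1 replicate 1 or 2, or marrow P3 replicate 2 or 3 (adjusted p from 0.0522 to 0.0808). Pdgfrb in P1 against P2 of muscle and marrow missed the threshold (-2.56, adjusted p = 0.0649) and passed with the replicate block (adjusted p = 0.0346) and without muscle P2 replicate 2, periosteum P2 replicate 2 or 3, or marrow P3 replicate 1 (adjusted p from 0.0252 to 0.0499). The same interaction passed with quantile normalization (-2.73, adjusted p = 0.0474) and on the compared groups alone (adjusted p = 0.00875). Without muscle P2 replicate 2, the P1 over P2 difference of Pdgfd was also a call, between muscle and periosteum (-7.24, adjusted p = 0.00769) and between muscle and marrow (-5.14, adjusted p = 0.0348).

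Levels were compared between genes only per kb of exon (union of GENCODE M21 exons). In marrow P1, the ligands averaged 417 ± 48.0 for Pdgfa, 408 ± 144 for Pdgfd, 278 ± 111 for Pdgfc and 1.37 ± 2.37 for Pdgfb normalized counts per kb (SD, n = 3), beside 338 ± 52.2 for Pdgfra and 489 ± 216 for Pdgfrb. In muscle P3, Pdgfd led the ligands at 225 ± 57.9, ahead of Pdgfa at 106 ± 36.3, Pdgfb at 74.8 ± 14.2 and Pdgfc at 11.6 ± 0.748. The make-up of the ligand pool therefore differed by group, as shares of the summed per-kb level. Pdgfa was 80.8 to 98.7% of the pool in periosteum P2, where Pdgfd was at most 2.26%, and 21.6 to 27.9% in muscle P3. Pdgfc made up 20.4 to 28.5% in marrow P1 and at most 14.4% in each muscle and periosteum P1 library. Pdgfb reached 17.1 to 19.8% in muscle P3 and 9.66 to 14.9% in muscle P2, against 2.23 to 2.26% in muscle P1.

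The receptor balance, given as log2 of Pdgfra over Pdgfrb per kb, was -1.02 ± 0.32 in muscle P1, 1.04 ± 0.33 in muscle P2 and -0.91 ± 0.21 in muscle P3 (SD, n = 3). Each muscle P2 library had more Pdgfra than Pdgfrb per kb (0.66 to 1.28), and each muscle P1 and P3 library had less (-1.34 to -0.68). The sign depends on the exon unions used, 10024 bases for Pdgfra and 5478 for Pdgfrb, which pool all annotated isoforms. Differences between groups do not depend on these lengths. Periosteum P2 spread from -2.04 to 1.64, so its mean of 0.10 describes no single library. The other groups averaged -1.10 ± 1.03 in periosteum P1, -1.70 ± 0.27 in periosteum P3, -0.44 ± 0.86 in marrow P1, -0.49 ± 0.47 in marrow P2 and -1.46 ± 0.54 in marrow P3. These ratios are descriptions and carry no test. Muscle fibre markers were highest in muscle P2, as given above, and their part in the balance was not tested.

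**Figure D4:**
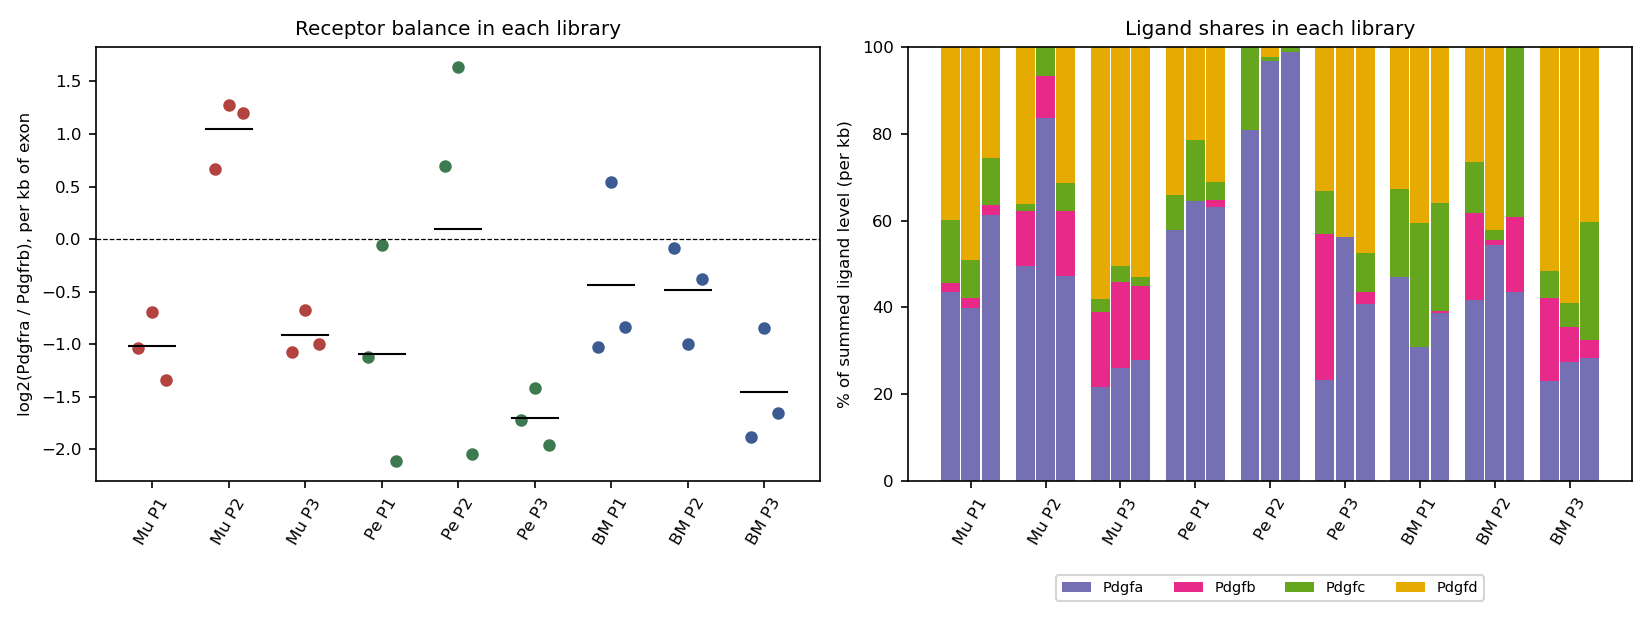
The left panel plots log2 of Pdgfra over Pdgfrb per kb of exon in each library (points) with the group mean (line), and the right panel stacks the 4 ligands as % of their summed per-kb level, 1 bar per library in replicate order. Muscle P2 is the group whose 3 libraries all lie above 0 (0.66 to 1.28), and Pdgfa fills 80.8 to 98.7% of each periosteum P2 bar.

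The surrounding pathway was followed with 44 genes in 5 lists, all of which passed the filter; Vegfd is listed under its older symbol Figf. Over the 9 subpopulation comparisons these genes gave 69 calls, beside 0.466 to 34% of all genes called per comparison. Over the 9 tissue comparisons they gave 63, beside 3.5 to 40.1%. The most were in periosteum P2 against P3 (4 higher and 11 lower of 44, beside 17.1% of all genes), marrow P1 against P2 (9 higher and 5 lower, beside 34%) and P2 of muscle against marrow (10 higher and 3 lower, beside 40.1%). In the latter 2, the share of list genes called was below that of all genes. P1 of periosteum against marrow gave 0 of 44 by limma, beside 4.87%. The median log2 difference of the list in marrow P1 against P2 was 0.28 against -0.61 over all genes, and in periosteum P2 against P3 it was -0.26 against 0.

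Among 7 genes of ligand processing and binding, Sparc, a matrix protein that binds PDGF, was called most often. Its normalized count averaged 566055 ± 42695 in marrow P1 and 534 ± 81.4 in marrow P2 (SD, n = 3), a log2 difference of 10.06 (adjusted p = 8.42e-20). Nrp1, a co-receptor for PDGF and VEGF ligands, averaged 9245 ± 2615 in muscle P3 and 519 ± 211 in muscle P2 (adjusted p = 0.000393). Lrp1, an endocytic receptor that associates with the beta receptor, averaged 8775 ± 2322 in marrow P1 and 845 ± 515 in marrow P2 (log2 difference 3.51, adjusted p = 0.000198). In marrow P1 against P2, this list gave 3 higher and 2 lower of 7, beside 10.4% of all genes higher and 34% called in either direction. Muscle against marrow gave 5 higher and 0 lower in P2 (14.1% of all genes higher and 40.1% in either direction). In P3 it gave 5 higher and 1 lower (6.14% higher and 10.4% in either direction).

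Among 17 receptor-proximal signalling genes, P2 of muscle against periosteum gave the most calls, 4 higher beside 17.6% of all genes higher and 28% in either direction. Marrow P1 against P2 gave 2 higher and 1 lower (34% of all genes in either direction) and periosteum P2 against P3 gave 1 higher and 2 lower (17.1%). Periosteum P1 against P2 gave 2 higher (10.1% higher and 19.1% in either direction). P2 of periosteum against marrow gave 2 lower (20% in either direction). Each of the other 13 comparisons gave at most 1. The kinases Yes1 (6.14, adjusted p = 0.00284) and Fyn (4.51, adjusted p = 0.0259) were higher in marrow P1 than in P2, and the adaptor Nck2 was lower (-2.30, adjusted p = 0.042). Among 9 attenuators, periosteum P1 against P2 gave 2 higher and 0 lower (10.1% of all genes higher and 19.1% in either direction). The list median was -0.67 there, against 0 over all genes. The feedback inhibitors Spry1 and Spry4 were the higher ones, by 6.77 (adjusted p = 1.82e-05) and 4.67 (adjusted p = 0.00826). Spry1 was also higher in marrow P1 than in P2 by 4.94 (adjusted p = 0.000377), the 1 call of the list there (34% in either direction). In periosteum P2 against P3, the list gave 2 higher and 2 lower (17.1% in either direction). Spry2 was higher in P2 there by 3.41 (adjusted p = 0.00339), while Spry1 and Spry4 were lower in P2, with sizes of 7.37 and 7.55. Of the related class III receptors, Kit was lower in periosteum P2 (listed at 0) than in P3 (adjusted p = 0.0202), Flt3 was lower in marrow P1 than in P2 by -3.81 (adjusted p = 0.021), and Csf1r was called in 0 comparisons.

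The VEGF family, whose receptors are close relatives of the PDGF receptors, gave 4 of its 8 genes lower in muscle P2 than in P3 (beside 5.61% of all genes lower), 5 lower with 1 higher in periosteum P2 against P3 (17.1% in either direction), and 4 lower in marrow P2 against P3 (5.38% lower). Kdr, an endothelial receptor, averaged 8869 ± 3304 in muscle P3 and 301 ± 276 in muscle P2 (log2 difference -5.47 for P2 minus P3, adjusted p = 0.0023). Flt1 was lower in marrow P1 than in P3 by -6.62 (adjusted p = 0.00133), and Vegfc was higher in periosteum P1 than in P2 by 5.73 (adjusted p = 0.000166). Kdr and Flt1 are also 2 of the 10 endothelial markers above.

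**Figure D5:**
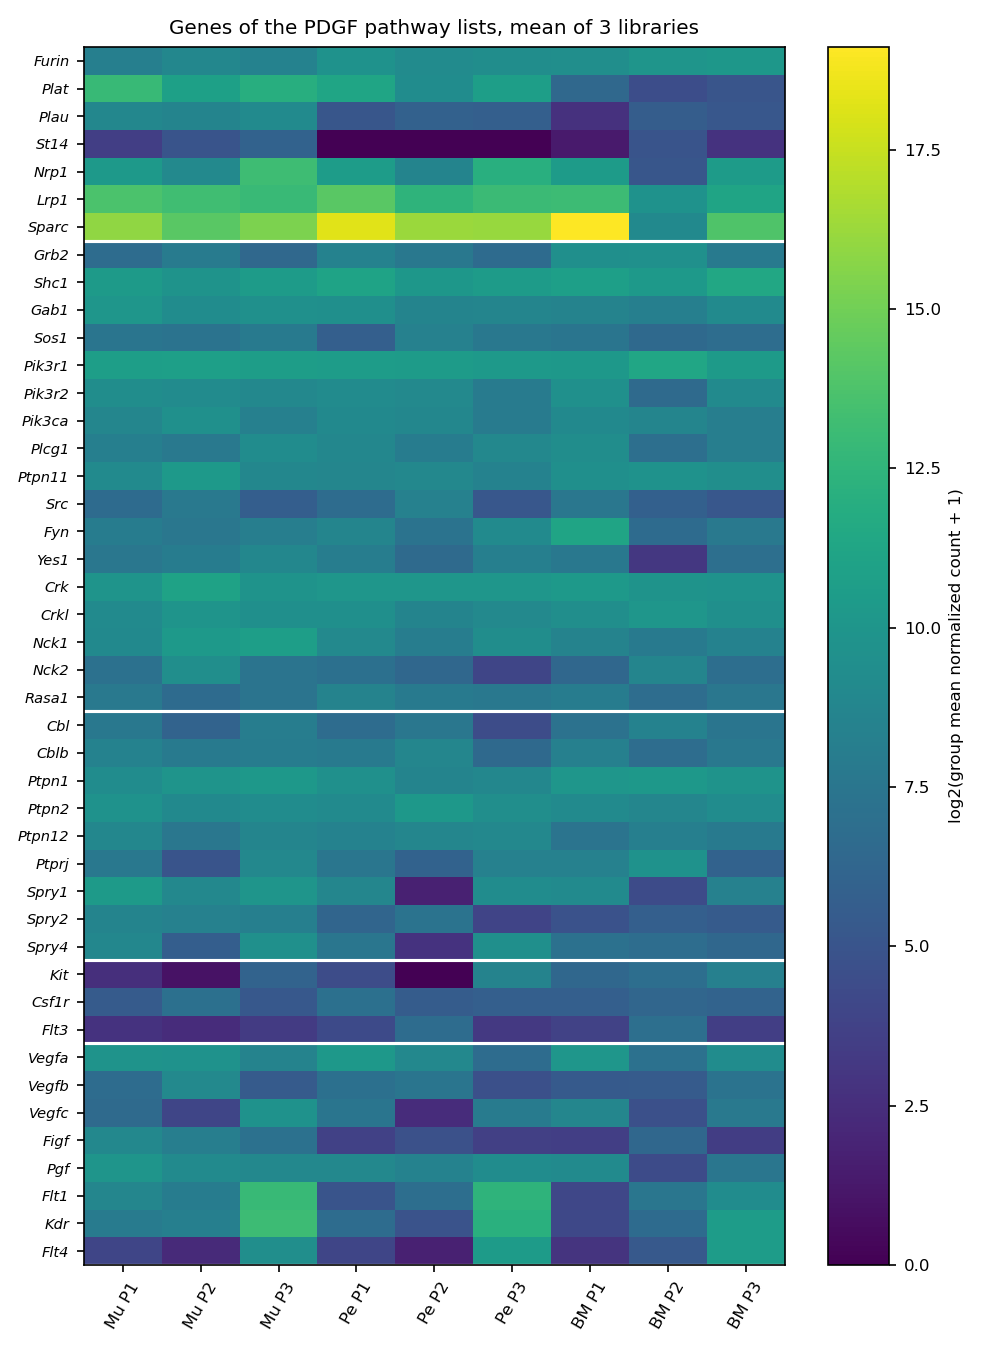
The heat map gives log2(group mean normalized count + 1) of the 44 pathway genes (rows, in 5 lists parted by white lines) in the 9 groups (columns: Mu muscle, Pe periosteum, BM bone marrow; P1 to P3), to be read along a row since counts are not divided by length. Sparc is brightest in marrow P1, and Flt1 and Kdr are brightest in P3 of muscle and periosteum.

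Across the 27 libraries, the receptors had the highest Pearson r of any pair of members on log2 values, 0.835, while Pdgfa and Pdgfb had r of -0.300. By Spearman rho, the receptors were again the highest pair (0.676), but close to Pdgfa with Pdgfc (0.652) and Pdgfd with Pdgfrb (0.627). These values are descriptions over 27 libraries that share group, tissue and scaling. The 5 genes most like Pdgfa were Ccpg1 (r = 0.887), Gabarap, Sec31a, P4ha1 and Fam114a1 (r = 0.861), and those most like Pdgfb were Endou (r = 0.824), Enpep, Slc52a3, Hoxd8 and Clec2d (r = 0.792). Pdgfc was closest to Marveld1 (r = 0.854), Bcar3, Zbtb7c, Sema5a and Triqk (r = 0.826), and Pdgfd to Mettl21a (r = 0.843), Fah, Aldh2, Rbp4 and Tmem205 (r = 0.834). Pdgfra was closest to Fermt2 (r = 0.963), Dcn (r = 0.944), Islr, Rnase4 and Anxa6 (r = 0.927), and Pdgfrb to Olfml2b (r = 0.962), Nfatc4, Zfp36l1, Shisa5 and Hes1 (r = 0.904). By Pearson r, the receptors thus had closer neighbours than the ligands. By Spearman rho, the same neighbours overlapped, at 0.661 to 0.872 for Pdgfra, 0.674 to 0.915 for Pdgfrb and 0.660 to 0.901 for Pdgfc. The lowest libraries of each ligand but Pdgfa include values at or near 0, and their part in these correlations was not tested.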

How the data were processed

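Bulk RNA-seq libraries were made per the labels with SMART-Seq v4 full-length cDNA and Nextera XT. Per the study's methods, the authors trimmed reads with Trim Galore, aligned them with STAR and handled counts with DESeq2. The genome build, annotation and counter are not given in the sources used here. The deposited signal values are normalized counts, 1 table of 30154 entries for 27 libraries. The step between low values differed from gene to gene, so whole reads were not recovered and no count test was run. The transgene entry was left out of totals and tests.

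The filter required a value of 10 or more in 3 or more libraries (18442 of 30153 genes). limma 3.58.1 in R 4.3.3 fitted 9 group means to log2(normalized count + 1), with a trend in the prior variance, 18 residual degrees of freedom and two-sided p-values adjusted by Benjamini-Hochberg over all genes per comparison. Comparisons were made between subpopulations within a tissue, between tissues within a subpopulation, and as interactions. The script was tested on simulated data. Tables used Python 3.11.15 with pandas 2.3.3 and numpy 2.4.6, and figures matplotlib 3.10.9. Gene models came from GENCODE M21, in which 29732 of 30153 listed identifiers were found, and promoter windows from RefSeq GRCm38.p6.

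The members and gene lists were chosen with earlier results of these data known. Named were the 6 members, the 3 genes of each list with the most calls (ties by the largest change), the 5 genes most correlated with each member, cell type markers and sorted surface markers. Marker lists for fibro-adipogenic, reticular, cartilage, leukocyte, macrophage, megakaryocyte, satellite and Schwann cells were also summed. Libraries with the same replicate number did not deviate together (mean r per pair of groups from -0.0592 to 0.0502, 36 pairs), so the numbers were not taken as pairs. Alternatives were the pseudocount, the filter, a replicate block, the variance trend, 2 other scalings, fits on the compared groups alone, no fold threshold, and each library left out. Where a setting leaves a group with fewer libraries, limma's pooled spread was used.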

Additional observations from a re-analysis of the deposited data

Results flagged for a closer look

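These 5 differences between tissues in a subpopulation change passed the interaction test in limma (adjusted p values are in the report). For Pdgfa, the P1 against P2 change differed between muscle and bone marrow by -3.31, and the P1 against P3 change differed between the same tissues by -3.54. For Pdgfra, the P1 against P2 change differed between muscle and bone marrow by -4.68 and between periosteum and bone marrow by -3.68, and the P2 against P3 change differed between muscle and bone marrow by 2.61. In each of these, the change was larger in size in bone marrow than in the other tissue. Globin share was 44.2 to 47.3% in bone marrow P2, which enters 4 of the 5, and its part in them was not tested. With each library left out in turn, the call of the Pdgfa P1 against P3 change was lost in 7 of 27 fits and those of the other 4 in 0.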

How the results depend on the processing

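Of 28 pairwise calls of the members, 15 held under all 10 alternatives and with each of the 27 libraries left out, 18 held with each library left out, and 11 were lost when only the groups compared were fitted. Dropping the fold threshold, among the 10, could not lose a call, and most left-out libraries lay outside a given comparison. No called value reversed; a change of sign between values called in neither setting was not counted. Subpopulation calls of the members (17) ranged from 14 to 21 over the alternatives and from 15 to 19 with a library left out; tissue calls (11) ranged from 10 to 12 and from 9 to 13. Interaction calls (5) rose to 8 with quantile normalization and 10 with only the groups compared, and ranged from 4 to 9 with a library left out, with 9 without muscle P2 replicate 2 and 8 without periosteum P2 replicate 2. Pathway calls, 69 between subpopulations and 63 between tissues, ranged from 59 to 83 and from 54 to 77 with a library left out. With the replicate block, the members had 19 subpopulation, 11 tissue and 6 interaction calls, adding Pdgfb in periosteum P2 against P3, Pdgfrb in muscle P1 against P2 and Pdgfrb in the P1 against P2 change of muscle against marrow; it ended none, and the replicate numbers are not known to pair libraries. The cause of these shifts was not tested. Scaling moved the median of all genes: for marrow P1 against P3 it was 0 as deposited, -0.79 with libraries rescaled to the same total and 0.00 after quantile normalization, and for marrow P2 against P3 it was 0.48, -0.53 and 0.09. Values near 0, as for Pdgfb, Pdgfc and Pdgfd, are limited by depth, which is unknown here.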

Other observations

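Markers of the other cell types a gate could hold were summed per library, and their part in the PDGF levels was not tested. Fibro-adipogenic markers (8 genes) summed to 237016 to 575000 in the muscle groups and 830 to 1557 in bone marrow P2. Marrow reticular markers (6) summed to 32223 to 117507 in bone marrow P3 and 945 to 1062 in periosteum P2, and cartilage markers (6) to 289568 to 713770.3 in periosteum P2, against 119 to 605 in bone marrow P2. Megakaryocyte and platelet markers (7), of interest because platelets carry PDGF, summed to 2079 to 17289 in bone marrow P2, where Pdgfb was 2.80 to 66.1, and to 191 to 2309 in muscle P3, where Pdgfb was 271 to 379. Leukocyte markers (8) ranged from 71.7 to 138 in periosteum P1 up to 30629.8 to 190025 in bone marrow P2. Macrophage markers (5) were at most 1492 in any library, satellite cell markers (4) were highest in muscle P1 (3156 to 5979), and Schwann cell markers (4) were 49.4 to 2637 over all libraries.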
